A study of Homo sapiens with 8 samples.

Results

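The chemokine system was described through 57 genes, 37 chemokines and 20 chemokine receptors, of the 14884 genes named on these arrays. Members were chosen by symbol alone: a stem of CCL, CXCL, CCR, CXCR, ACKR, XCL, XCR or CX3C followed by a number, or by a letter and a number. CCRL2, antisense genes and pseudogenes were left out. Each of the 57 had 1 probe set, so no choice between probe sets was needed. By role they were 21 CC ligands, 13 CXC ligands, 3 ligands of the CX3C and XC classes, 8 CC receptors, 6 CXC receptors, 2 receptors of the CX3C and XC classes and 4 atypical receptors.

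Chemokines are small secreted proteins that direct the movement of blood cells. They act on receptors with several membrane passes that couple mostly to inhibitory G proteins, while atypical receptors bind and remove chemokines without that signal. In myeloid leukaemia the axis of CXCL12 and its receptor CXCR4 is known for holding cells in the bone marrow, and CC ligands such as CCL3 and CCL4 are typical products of activated monocytes and macrophages.

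The cells were MOLM-14, an established human line of acute myeloid leukaemia. All 8 arrays came from cells given doxycycline for 72 h, which turned on a short hairpin RNA. In 4 arrays the hairpin was aimed at ENTPD1, which encodes the ectonucleotidase CD39 (shCD39), and in 4 it was scrambled (shCTRL). The labels speak of clones of the line and name the arrays technical replicates, so the spread between arrays and every p-value may be technical only, and the cells stand for a single line in culture. The question of the comparison was which genes depend on CD39.

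Values are log2 expression after RMA, which removes background, gives the arrays 1 common distribution of values and combines the probes of each set. A level of one probe set cannot be ranked against that of another, so only differences between groups are compared across genes. Array medians lay between 3.13 and 3.17, correlations between arrays over all probe sets between 0.974 and 0.987, and 25 of the 57 members had a mean above the median of those medians, 3.15. The other 32 lay at or below it. The deposited values carry no detection call, so it is not known which of these genes were above background. ENTPD1 itself read 2.42, 2.14, 2.72 and 2.95 in shCD39 arrays 1 to 4 and 3.16, 2.88, 3.21 and 4.12 in shCTRL arrays 1 to 4. Its groups overlapped, and the difference of -0.79 (SE 0.25) did not pass (limma adjusted p = 0.178), so every direction given here rests on arrays labelled shCD39 in which the loss of the target was not called. The line's markers FLT3, SPI1, MPO, LYZ and CD68 had group means between 7.04 and 10.04 on the log2 scale.

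None of the 57 members passed the threshold of a limma adjusted p of 0.05, set over all genes, against 0.0941% of all genes. At an unadjusted p under 0.05 there were 7 members, or 12.3%, against 14.7% of all genes. Of these 6 were higher in shCD39 and 1, CXCL11, was lower, whereas 6.54% of all genes were higher at that level. In 6 members the 4 shCD39 values lay entirely above the 4 shCTRL values (10.5%, against 7.85% of all genes in either direction and 3.61% of all genes in this direction), and in 0 members they lay entirely below. The median log2 fold change, shCD39 minus shCTRL, was 0.05 over the members and 0.01 over all genes, with 34 members above 0 and 23 below. The share of members at an unadjusted p under 0.05 was thus close to that of all genes. The share without overlap, 10.5% against 7.85%, was not tested against that of all genes. It rested on 6 genes: CCL23, CCL4, CCL24, CCL18, CCR7 and CXCR4. In bulk RNA such a value cannot separate fewer cells with a transcript from less transcript per cell.

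**Figure D1:**
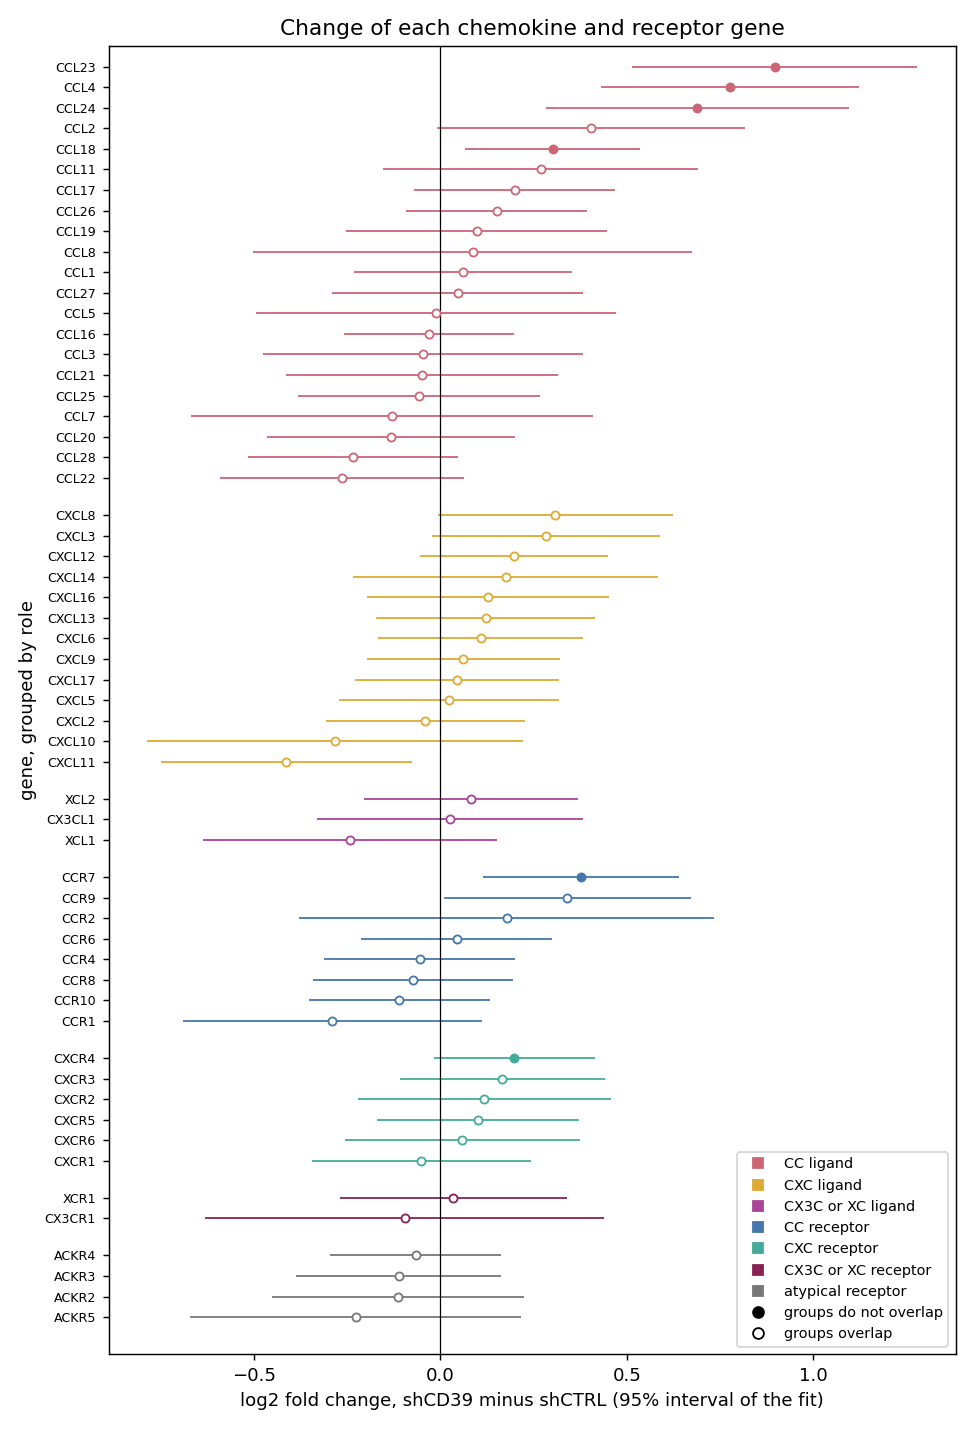
Log2 fold change (shCD39 minus shCTRL) of each of the 57 genes on the x axis with the 95% interval of the limma fit, in blocks by role on the y axis. Filled points mark the 6 genes whose groups did not overlap; CCL23, CCL4 and CCL24 lie farthest to the right, at 0.90, 0.78 and 0.69, and CXCL11 farthest to the left, at -0.41.

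CCL23, a ligand of CCR1 made by myeloid cells, had the largest difference of the members. It read 3.56, 3.51, 4.12 and 3.65 in shCD39 arrays 1 to 4 and 2.59, 2.52, 2.98 and 3.16 in shCTRL arrays 1 to 4. Every shCD39 array lay above every shCTRL array, with shCD39 array 3 the highest. The means were 3.71 ± 0.28 and 2.81 ± 0.31 (SD, n = 4 each), a 1.86-fold difference (log2 0.90, SE 0.17, limma adjusted p = 0.0783). The exact permutation test of this gene alone, 2-sided, gave p = 0.0286, the smallest that 4 against 4 arrays allow.

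CCL4, also known as macrophage inflammatory protein 1 beta and made by activated myeloid cells, came next. Its values were 3.39, 2.86, 3.50 and 3.67 in shCD39 and 2.69, 2.56, 2.48 and 2.58 in shCTRL. The shCTRL arrays stood close together (2.58 ± 0.08), and shCD39 array 2 was the nearest to them. The difference was 1.71-fold (log2 0.78, SE 0.16, limma adjusted p = 0.0815; exact permutation p = 0.0286). CCL4 has near-identical gene copies, and probes of the set may read them as well, so this value is uncertain as to the copy.

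CCL24, an eosinophil attractant also called eotaxin 2 whose receptor is CCR3, read 2.97, 3.17, 3.55 and 2.55 in shCD39 and 2.53, 2.31, 2.49 and 2.17 in shCTRL. The groups were parted by shCD39 array 4 only narrowly, at 2.55 against 2.53 in shCTRL array 1. The difference was 1.61-fold (log2 0.69, SE 0.19, limma adjusted p = 0.131). CCL18, a product of alternatively activated macrophages, read 3.17, 3.29, 3.42 and 3.26 against 2.98, 3.06, 3.07 and 2.82. Its groups did not overlap either, with a difference of 0.30 (SE 0.11, limma adjusted p = 0.223).

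All 4 of these CC ligands were dim in the controls: the shCTRL means of CCL23, CCL4, CCL24 and CCL18 (2.81, 2.58, 2.37 and 2.98) lay below the lowest array median. Leaving out shCD39 array 4, the array nearest to the controls in CCL24, brought 3 members past the threshold, CCL23 (log2 0.92, limma adjusted p = 0.0367), CCL24 (0.86, limma adjusted p = 0.0202) and CCL4 (0.67, limma adjusted p = 0.0474). In that setting 2.84% of all genes passed. Without shCD39 array 2 CCL4 passed (0.94, limma adjusted p = 0.0427), and without shCTRL array 4 CCL23 did (1.01, limma adjusted p = 0.0486), each as the only member, while 0.0336% and 0.322% of all genes passed in those settings. With arrays weighted by their quality, CCL23 and CCL4 passed (limma adjusted p = 0.0388 and 0.0498), as did 0.833% of all genes. Without both arrays numbered 4, CCL23 and CCL24 passed (limma adjusted p = 0.0332 and 0.0431), as did 2.47% of all genes. Leaving out any of the other 5 arrays left 0 members past the threshold.

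**Figure D2:**
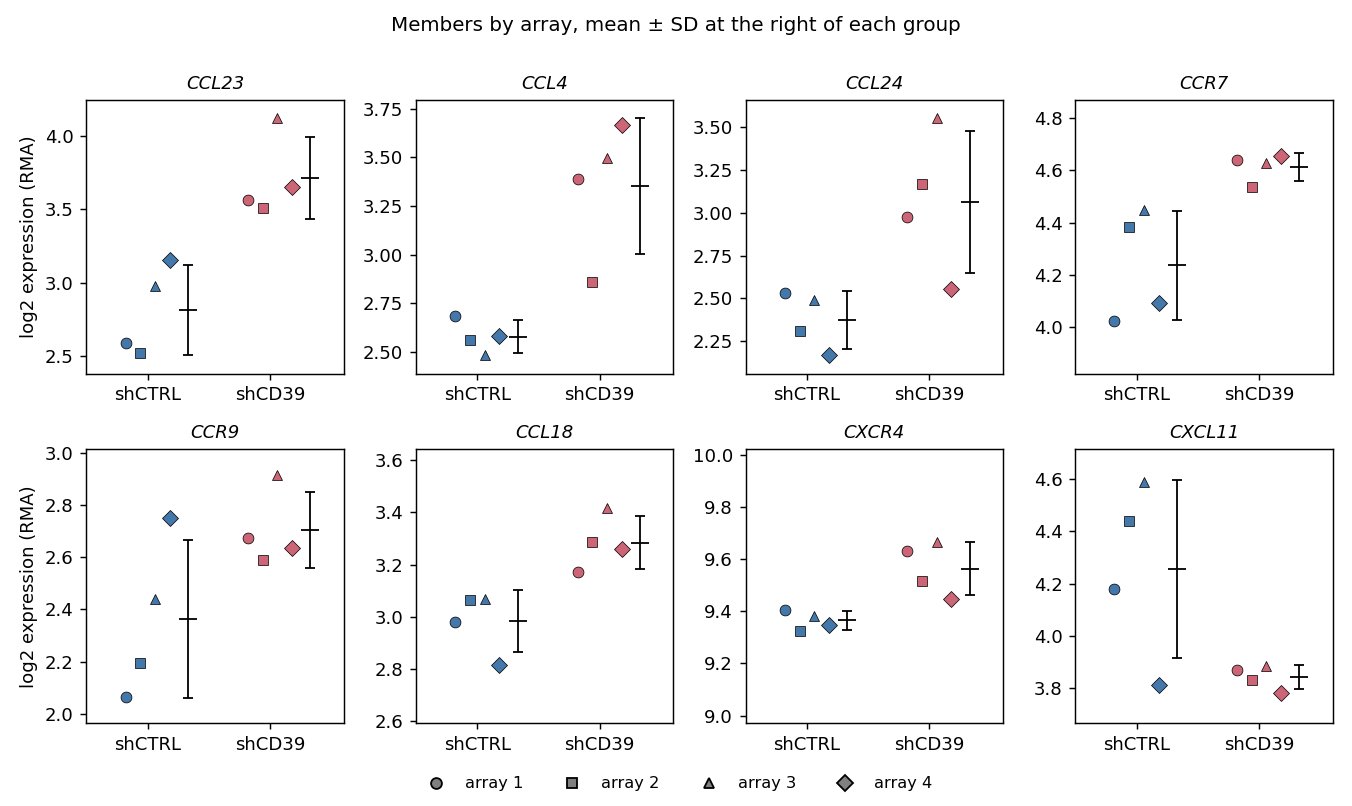
Log2 expression (y axis) of the 8 members with an unadjusted limma p under 0.05 or with groups that did not overlap, each array drawn as its own symbol and the mean ± SD beside each group. In CCL23, CCL4, CCL24, CCR7, CCL18 and CXCR4 all shCD39 arrays lie above all shCTRL arrays; in CCR9 and CXCL11 shCTRL array 4 (2.75 and 3.81) lies within the range of the shCD39 arrays.

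CCL23, CCL18 and CCL4 lie in 1 cluster of CC ligand genes on chromosome 17. In gene order this cluster holds the members CCL5, CCL16, CCL23, CCL18, CCL3 and CCL4. Their log2 fold changes in that order were -0.01 (SE 0.22), -0.03 (SE 0.10), 0.90, 0.30, -0.05 (SE 0.20) and 0.78. The 3 genes without overlap were not all next to each other, since CCL3 lies between CCL18 and CCL4. CCL3 and CCL4 are neighbours, usually described as made together by activated myeloid cells. CCL3 read 3.03, 3.27, 3.67 and 3.56 in shCD39 and 3.68, 3.02, 3.84 and 3.18 in shCTRL, so its groups were mixed, and the 95% interval of its difference ran from -0.48 to 0.38. That interval lies below the point value of CCL4, but the difference between both genes was not tested. The CCL3 copy CCL3L1, which is no member under the rule, stood at 4.38 ± 0.11 against 4.18 ± 0.16 (log2 0.20, SE 0.11). A further cluster on the same chromosome, from CCL2 to CCL1, had 5 members, of which 0 reached an unadjusted p under 0.05.

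**Figure D3:**
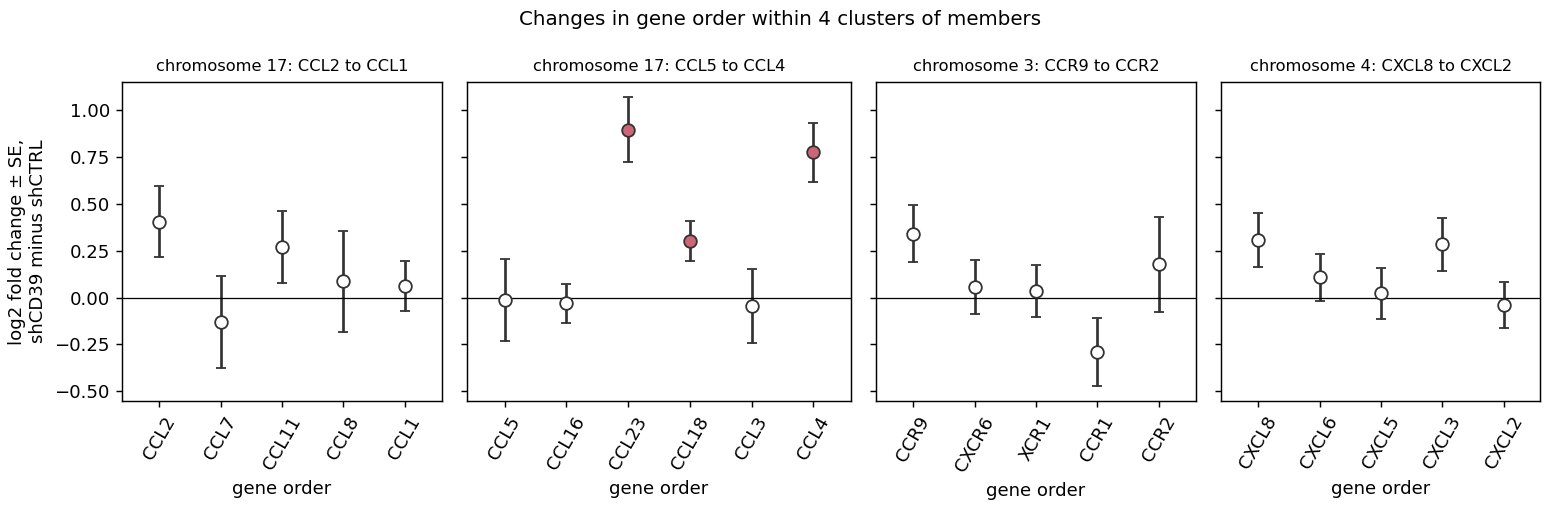
Log2 fold change ± SE (y axis) of members in their order along the chromosome (x axis, RefSeq order, not to scale), for the 4 clusters with at least 4 members. Filled points mark groups that did not overlap, as in 7.85% of all genes (3.61% with shCD39 higher). From CCL5 to CCL4 3 of the 6 genes are filled, and 0 of the 15 in the other clusters.

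The bases before the start of transcription were searched in the members with an unadjusted p under 0.05. They are shown for the CC ligands among them and for CXCL11, the member that was lower, so that these windows can be compared. Of the 57 members 41 matched a promoter in the RefSeq table of GRCh38.p14; CCL4 and CCR7 are among those that did not. CCR9 has 2 listed starts, and its windows, which hold 0 matches to any of the motifs, are not printed. Capitals mark matches, on either strand, to the NF-kB motif, to TGANTCA (a binding motif of AP-1, the factor built from JUN and FOS proteins) or to CCAAT, and the printed matches did not overlap. The windows, written 5′ to 3′ in the direction of the gene, hold 250 bases before the start; CCL24 has 2 listed starts.
CCL23 (chr17:36017973-36018222, minus strand): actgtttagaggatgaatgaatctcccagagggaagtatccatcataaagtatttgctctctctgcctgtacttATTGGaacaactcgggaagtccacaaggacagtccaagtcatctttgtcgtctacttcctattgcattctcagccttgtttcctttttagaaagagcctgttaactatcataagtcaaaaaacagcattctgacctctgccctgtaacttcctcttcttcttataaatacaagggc
CCL18 (chr17:36064022-36064271, plus strand): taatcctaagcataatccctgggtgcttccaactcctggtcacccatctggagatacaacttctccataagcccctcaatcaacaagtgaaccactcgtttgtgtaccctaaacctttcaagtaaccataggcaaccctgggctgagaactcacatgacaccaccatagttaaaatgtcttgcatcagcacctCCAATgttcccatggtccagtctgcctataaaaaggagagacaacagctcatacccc
CCL24, first listed start (chr7:75823373-75823622, minus strand): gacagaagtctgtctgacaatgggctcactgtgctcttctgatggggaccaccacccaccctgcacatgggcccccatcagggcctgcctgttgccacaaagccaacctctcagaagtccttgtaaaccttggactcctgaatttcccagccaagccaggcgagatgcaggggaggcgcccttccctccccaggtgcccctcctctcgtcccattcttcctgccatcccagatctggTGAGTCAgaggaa
CCL24, the other start (chr7:75813807-75814056, minus strand): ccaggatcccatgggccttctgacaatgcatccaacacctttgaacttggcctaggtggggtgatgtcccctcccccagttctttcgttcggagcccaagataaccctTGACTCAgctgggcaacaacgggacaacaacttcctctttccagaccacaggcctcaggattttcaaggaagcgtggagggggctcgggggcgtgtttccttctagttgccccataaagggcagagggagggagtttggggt
CXCL11 (chr4:76036071-76036320, minus strand): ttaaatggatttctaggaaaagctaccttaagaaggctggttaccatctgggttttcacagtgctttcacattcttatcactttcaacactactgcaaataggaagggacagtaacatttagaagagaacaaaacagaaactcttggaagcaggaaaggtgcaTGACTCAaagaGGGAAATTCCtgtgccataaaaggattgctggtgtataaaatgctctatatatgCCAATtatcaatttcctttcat

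Both windows of CCL24 hold TGANTCA, as TGAGTCA 6 bases before the first listed start and as TGACTCA 135 bases before the other. CXCL11 holds the NF-kB motif, as GGGAAATTCC 66 bases before its start, as well as TGACTCA and CCAAT. CCL23 and CCL18 hold CCAAT only, CCL23 on the opposite strand. Over all 35116 promoter windows of this length, 9.96% hold the NF-kB motif, 6.57% TGANTCA and 32% CCAAT. Over the 54 windows of members the counts were 10, 9 and 16. These matches describe letters, not bound sites.

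Among the other CC ligands CCL5, which attracts T cells and monocytes, read 8.23, 7.99, 8.12 and 7.54 in shCD39 and 8.15, 8.19, 8.30 and 7.29 in shCTRL. In each group array 4 was the lowest by a clear gap, and the rest of the 2 groups overlapped. The difference was -0.01 (SE 0.22), with a 95% interval from -0.50 to 0.47, and its sign turned when shCD39 array 4 (0.13) or any of shCTRL arrays 1 to 3 (0.04 to 0.09) was left out. CCL17, a ligand of CCR4, read 5.42, 5.06, 5.12 and 5.06 against 4.75, 4.97, 5.04 and 5.10, a difference of 0.20 (SE 0.12) that was 0.11 without shCD39 array 1 and 0.13 without shCTRL array 1. CCL28, a ligand of CCR10 known from mucosal epithelium, read 4.77, 4.30, 4.55 and 4.35 against 4.86, 4.72, 4.78 and 4.54, a difference of -0.23 (SE 0.13). Both pairs of groups overlapped. The remaining 14 CC ligands ran from -0.26 (CCL22, the other ligand of CCR4) to 0.40 (CCL2, the main attractant of monocytes). Their differences were above 0 in 7 and below 0 in 7, and 0 of them reached an unadjusted p under 0.05. CCL2 had means of 2.09 ± 0.32 and 1.68 ± 0.33 (SE of the difference 0.19, limma adjusted p = 0.351).

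CXC ligands showed no group that stood apart. CXCL11, an interferon-induced ligand of CXCR3, read 3.87, 3.83, 3.88 and 3.78 in shCD39 and 4.18, 4.44, 4.59 and 3.81 in shCTRL. The shCD39 arrays were close together (3.84 ± 0.05), and shCTRL array 4 fell among them. The difference was -0.41 (SE 0.15, limma adjusted p = 0.24), or 1.33-fold lower, and -0.56 without shCTRL array 4 (limma adjusted p = 0.0803). CXCL10, which shares that receptor and its induction by interferon, read 2.72, 3.22, 2.61 and 2.89 against 2.83, 3.32, 3.80 and 2.62, a difference of -0.28 (SE 0.23) that was -0.06 without shCTRL array 3, its highest value, and -0.46 without shCTRL array 4. CXCL9, the other interferon-induced ligand of CXCR3, stood at 0.06 (SE 0.12), so the 3 ligands did not share a direction.

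CXCL2, a neutrophil attractant, read 5.51, 5.31, 5.70 and 5.21 in shCD39 and 5.42, 5.54, 5.42 and 5.51 in shCTRL. Its groups overlapped, with a difference of -0.04 (SE 0.12) whose sign turned without shCD39 array 4 (0.03). The remaining 10 CXC ligands all had differences above 0, from 0.02 (CXCL5) to 0.31 (CXCL8), and 0 of them reached an unadjusted p under 0.05. Since CXCL11, CXCL10 and CXCL2 lay below 0, 10 of the 13 CXC ligands were above 0, against 52% of all genes. CXCL8, or interleukin 8, had means of 1.90 ± 0.30 and 1.60 ± 0.09 (SE of the difference 0.14, limma adjusted p = 0.351), and CXCL3, a further neutrophil attractant, stood at 0.28 (SE 0.14). The arrays overlapped in both. CXCL12, the ligand of CXCR4, read 3.42 ± 0.13 against 3.22 ± 0.15, a difference of 0.20 (SE 0.12). CX3CL1, XCL1 and XCL2, the ligands of the smaller classes, had differences of 0.03, -0.24 and 0.08.

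CXCR4, the receptor of CXCL12, read 9.63, 9.51, 9.66 and 9.45 in shCD39 and 9.41, 9.33, 9.38 and 9.35 in shCTRL. All shCD39 arrays lay above all shCTRL arrays, by a small margin between shCD39 array 4 and shCTRL array 1. The difference was 1.15-fold (log2 0.20, SE 0.10, 95% interval -0.02 to 0.42, limma adjusted p = 0.385; exact permutation p = 0.0286). The SD of 0.035 in shCTRL was the smallest of the members in that group, whose median SD was 0.20. The 5 other CXC receptors ran from -0.05 (CXCR1, a receptor of CXCL8) to 0.17 (CXCR3), with 0 at an unadjusted p under 0.05.

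CCR7, which guides lymphocytes and dendritic cells to lymph nodes, was the CC receptor with the largest difference. It read 4.64, 4.54, 4.63 and 4.65 in shCD39 and 4.02, 4.38, 4.45 and 4.09 in shCTRL. The shCD39 arrays agreed to 0.05 (SD) and all lay above the shCTRL arrays. The difference was 1.30-fold (log2 0.38, SE 0.12, limma adjusted p = 0.18; exact permutation p = 0.0286). CCR9, a receptor of gut-homing lymphocytes, read 2.67, 2.59, 2.92 and 2.63 against 2.06, 2.19, 2.44 and 2.75. Its groups overlapped by shCTRL array 4, and the difference was 0.34 (SE 0.15, limma adjusted p = 0.327), or 0.47 without that array.

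CCR1, the monocyte receptor of CCL3, CCL5 and CCL23, read 4.22, 4.36, 4.34 and 3.77 in shCD39 and 4.72, 4.28, 4.78 and 4.06 in shCTRL. The groups overlapped, and the difference was -0.29 (SE 0.18), and leaving out shCD39 array 4 or shCTRL array 3 gave -0.16 and -0.18. CCR2, the receptor of CCL2 on classical monocytes, read 4.99, 4.61, 5.75 and 4.27 against 4.56, 4.69, 4.70 and 4.97. Its SD of 0.64 in shCD39 was the largest of the members in that group, and the difference of 0.18 (SE 0.25) turned to -0.11 without shCD39 array 3 and was 0.28 and 0.39 without shCD39 arrays 2 and 4. CX3CR1, the receptor of CX3CL1 on patrolling monocytes, read 5.16, 4.44, 5.33 and 4.26 against 4.67, 4.65, 5.39 and 4.86, a difference of -0.10 (SE 0.24) whose sign turned without shCD39 array 2 (0.02), shCD39 array 4 (0.08) or shCTRL array 3 (0.07). In these receptors the gap between the lowest and the highest array of each group exceeded the difference between the group means. The remaining 4 CC receptors, CCR4, CCR6, CCR8 and CCR10, ran from -0.11 to 0.04, and XCR1 stood at 0.03.

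The atypical receptors, which take up chemokines without G protein signalling, all had differences below 0: -0.23 for ACKR5, -0.11 for ACKR2 and for ACKR3, which binds CXCL12 and CXCL11, and -0.07 for ACKR4. None reached an unadjusted p under 0.05, and the means of all 4 lay below the array medians. Set by axis, ligand and receptor differed as follows. CCL23 stood at 0.90 and its receptor CCR1 at -0.29; CXCL12 and CXCR4 both at 0.20; CCL19 and CCL21, the ligands of CCR7, at 0.10 and -0.05 beside 0.38; and CCL25 at -0.06 beside 0.34 for its receptor CCR9. CCR3, the receptor of CCL24, was not analysed here.

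The members were also followed from array to array. The median deviation of the 57 genes from their shCTRL means was 0.04, 0.03, 0.13 and -0.02 in shCD39 arrays 1 to 4 and -0.09, -0.02, 0.08 and 0.00 in shCTRL arrays 1 to 4. The groups overlapped on this measure, and in each group array 3 had the highest median. Over all genes the median deviation was 0.007 in shCD39 array 3 and -0.007 in shCTRL array 3. Of the 57 members, 14 had their highest value in shCD39 array 3 and 14 in shCTRL array 3, while 13 had their lowest in shCD39 array 4 and 12 in shCTRL array 1.

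**Figure D4:**
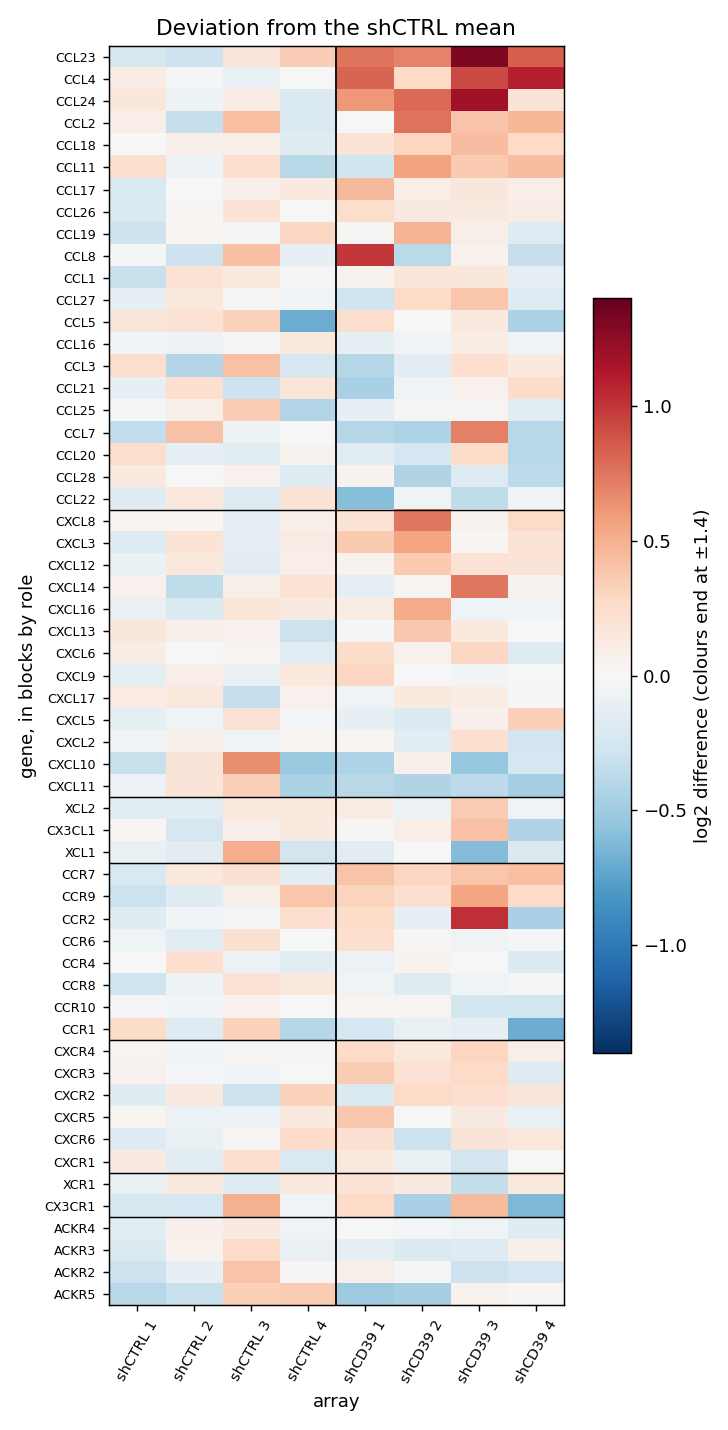
Deviation of each of the 57 genes (rows, in blocks by role) from its shCTRL mean on each of the 8 arrays (columns), in log2 units. The row of CCL23 is red in all shCD39 arrays and that of CXCL11 blue in all of them, while most rows, such as CCL5 and CCR2, vary as much within a group as between groups.

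Transcription factors, cytokines and other genes linked to the induction of chemokine genes were examined as a list of 28, of which 15 were measured. None passed over all genes, and at an unadjusted p under 0.05 there were 4, all higher in shCD39; the median difference was 0.14. For this list and those that follow, the shares of all genes at that level are the ones given for the members, 14.7% in either direction and 6.54% higher. JUN, a subunit of AP-1, read 4.62, 4.36, 4.87 and 3.93 in shCD39 and 3.69, 3.17, 3.64 and 3.25 in shCTRL (log2 1.01, SE 0.20, limma adjusted p = 0.0783). FOS, its partner in AP-1, read 5.91, 5.63, 5.95 and 5.40 against 5.25, 5.29, 5.16 and 4.96 (0.56, SE 0.14, limma adjusted p = 0.115). FOS has 2 probe sets, and their average gave 0.29 (limma adjusted p = 0.224). Neither gene's groups overlapped, and both rose without shCD39 array 4 (1.18 and 0.66, limma adjusted p = 0.00826 and 0.0255). Without shCD39 array 3 JUN and FOS were 0.87 and 0.48. MAP3K8, a kinase upstream of NF-kB and ERK, stood at 0.35 (SE 0.14), and FOSB, a relative of FOS, at 0.40 (SE 0.18). FOSB also has 2 probe sets, and their average gave 0.25 (limma unadjusted p = 0.0869). The NF-kB subunits NFKB1, NFKB2, REL, RELA and RELB had differences of -0.13, 0.09, -0.17, -0.03 and 0.16, without a common direction.

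Receptors for chemoattractants other than chemokines had 15 of 18 genes measured, with 0 past the threshold, 5 at an unadjusted p under 0.05 (4 higher, 1 lower) and a median of 0.19. GPR183, an oxysterol receptor that positions immune cells, read 7.51, 8.17, 7.62 and 7.83 in shCD39 and 6.60, 6.73, 6.52 and 7.57 in shCTRL (0.92, SE 0.22, limma adjusted p = 0.106). Its groups overlapped by shCTRL array 4 alone, and without that array GPR183 rose (1.16, limma adjusted p = 0.0215). Without shCD39 array 2 GPR183 was 0.79. CYSLTR1, a receptor of cysteinyl leukotrienes, and FPR3, a formyl peptide receptor, stood at 0.52 (SE 0.13) and 0.56 (SE 0.16), and their groups did not overlap. FPR3 was dim, with group means of 2.36 and 1.79, below the array medians. LTB4R, a receptor of leukotriene B4, stood at -0.36 (SE 0.12), with all shCD39 arrays below all shCTRL arrays. PTAFR, the receptor of platelet-activating factor, stood at 0.62 (SE 0.28). It was 0.34 without shCD39 array 3, and without shCD39 array 4 it rose (0.92, limma adjusted p = 0.0383).

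Of 40 genes of signalling downstream of chemokine receptors, 16 were measured, and 1 of them reached an unadjusted p under 0.05. That gene, RGS16, which shortens G protein signals, stood at -0.61 (SE 0.27), or -0.42 without shCTRL array 3 and -0.92 without shCTRL array 4. RGS18, a relative in blood cells, stood at 0.85 (SE 0.40) with shCD39 arrays 1 and 3 at 4.75 and 4.54 and arrays 2 and 4 at 2.61 and 2.95, and was 0.50 without shCD39 array 1. DOCK8, which activates CDC42 in moving leukocytes, stood at -0.20 (SE 0.11). Proteases that trim chemokines had 8 of 11 genes measured, all with differences above 0 and 3 at an unadjusted p under 0.05. These were PRTN3 (0.51, SE 0.22, but 0.25 without shCTRL array 3), a granule protease, MMP14 (0.30, SE 0.13), a membrane metalloproteinase, and ADAM17 (0.23, SE 0.11), the sheddase that frees TNF. Chemokine-like genes outside the symbol rule had 10 of 12 measured, with 0 at an unadjusted p under 0.05; PF4V1, a platelet chemokine, stood at 0.20, CMTM6 at 0.18 (0.10 without shCTRL array 1 and 0.29 without shCTRL array 4) and CMTM3 at -0.17. None of the genes on these 3 lists passed over all genes.

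Markers of monocytes and macrophages had higher mean levels in the shCD39 arrays, as CCL23 did. All 7 measured of 12 had differences above 0, and 4 reached an unadjusted p under 0.05. The mean log2 level of the list ran from 4.16 to 4.78 in shCD39 and from 3.67 to 3.97 in shCTRL, so the groups did not overlap. S100A9, a calcium-binding protein of myeloid cells, read 5.33, 5.27, 5.43 and 5.10 against 4.10, 4.47, 4.09 and 4.77 (0.93, SE 0.16, limma adjusted p = 0.0568). CSF1R, the receptor of macrophage growth factors, stood at 1.36 (SE 0.29), S100A8, the partner of S100A9, at 1.11 (SE 0.25), and FGL2, a fibrinogen-like protein, at 1.18 (SE 0.40). Without shCD39 array 4, the setting in which CCL23, CCL24 and CCL4 passed, S100A9, CSF1R and S100A8 passed too (limma adjusted p = 0.0159, 0.00774 and 0.0412). The defining markers CD14, CD163 and VCAN had group means between 1.90 and 2.47, below the array medians in both groups, and differences of 0.09, 0.12 and 0.08. The part of these markers in the values of CCL23, CCL4, CCL24 and CCL18 was not tested.

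**Figure D5:**
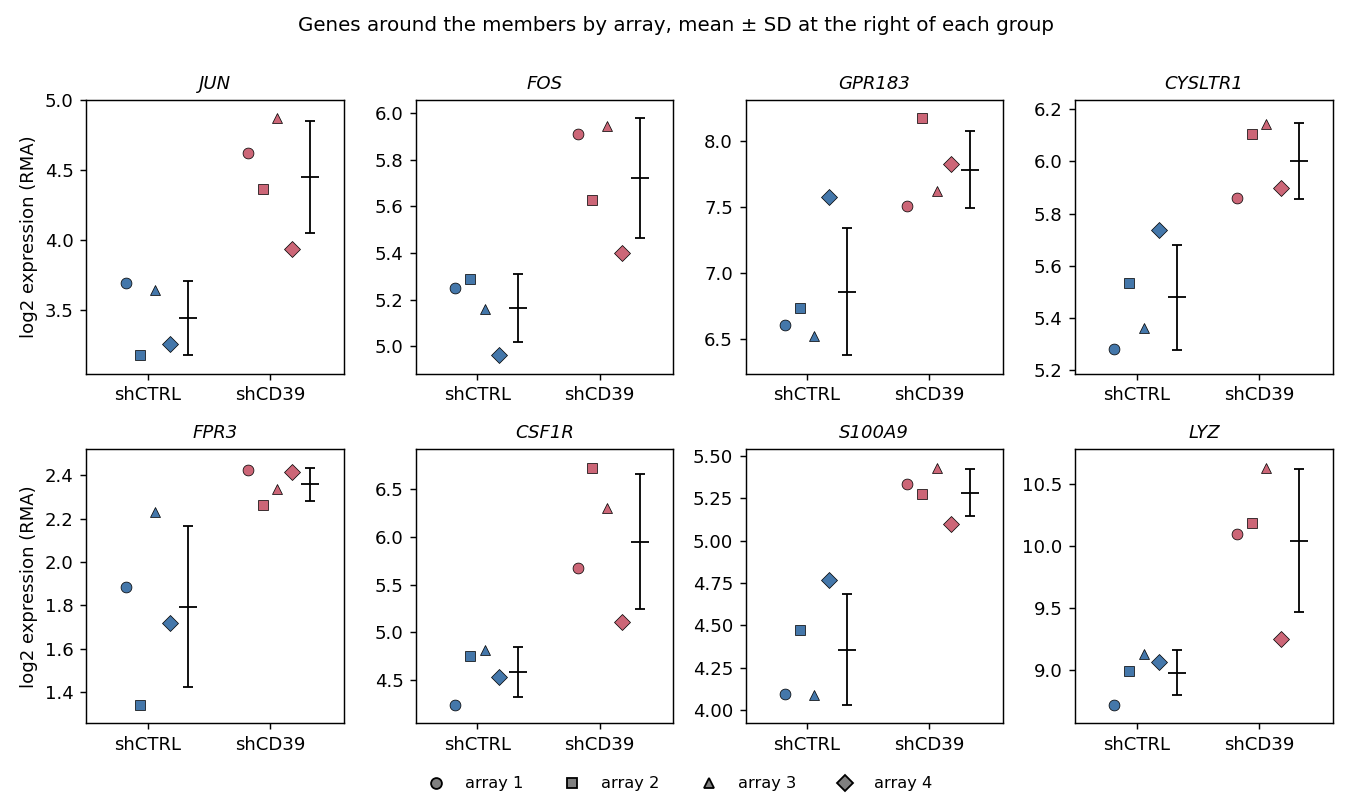
Log2 expression (y axis) of 8 genes around the chemokine system, each array drawn as its own symbol and the mean ± SD beside each group. In 7 of them all shCD39 arrays lie above all shCTRL arrays, which holds for 3.61% of all genes. These 8 were drawn from the genes of lowest p on their lists, and all had higher means in shCD39. The count follows from that choice. LTB4R, whose shCD39 arrays lie below all shCTRL arrays, is not drawn. In GPR183 shCTRL array 4, at 7.57, reaches into the shCD39 range. In JUN, FOS, CSF1R, S100A9 and LYZ shCD39 array 4 is the lowest of its group.

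The list of the leukaemia's own markers had 8 of 13 measured, 4 with differences above 0 and 4 below, and a median of -0.13. LYZ, the lysozyme of myeloid cells, stood at 1.07 (SE 0.24) and rose without shCD39 array 4 (1.33, limma adjusted p = 0.00475). Without shCD39 array 3 LYZ was 0.87. The 4 below 0 were PBX3 (-0.41) and MEIS1 (-0.28), partners of HOX factors, the granule enzyme MPO (-0.40) and the receptor FLT3 (-0.29), with 0 at an unadjusted p under 0.05. Leaving out shCD39 array 3 brought PBX3, MEIS1 and MPO to -0.26, -0.14 and -0.14, and leaving out shCD39 array 1 brought FLT3 to -0.16. Leaving out shCD39 array 4 brought PBX3, MEIS1 and FLT3 to -0.54, -0.39 and -0.40. Without shCTRL array 3 MPO stood at -0.68.

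Markers of other cells gave the following values. T and NK cell markers had 8 of 13 measured and 2 at an unadjusted p under 0.05, NKG7 (0.50, SE 0.13) and TRAT1 (0.28). PRF1 stood at 0.34 (0.51 without shCTRL array 2), and the list's mean level ran from 4.46 to 4.86 in shCD39 and from 4.43 to 4.71 in shCTRL. B cell markers had 3 of 7 measured and 1 at an unadjusted p under 0.05, PAX5 (-0.27, SE 0.11). All shCD39 arrays of PAX5 lay below all its shCTRL arrays. MZB1 stood at 0.19 (0.08 without shCTRL array 2) and BANK1 at -0.0021. Markers of erythroid cells and megakaryocytes had 5 of 9 measured. AHSP stood at 0.26 (0.13 without shCD39 array 1), KLF1 at 0.17 (0.10 without shCTRL array 2) and GP9 at 0.14 (0.04 without shCD39 array 1). Of the markers of fibroblasts, endothelium and epithelium 7 of 11 were measured, with PECAM1, which leukocytes also carry, at 0.77 (SE 0.17), EPCAM at 0.22 (SE 0.10), with groups that did not overlap in both, and THY1 at 0.29. The mean level of the last list ran from 4.09 to 4.31 in shCD39 and from 3.85 to 4.02 in shCTRL, so the groups did not overlap here either. The T cell gene CD2 (3.14 and 3.10) and the fibroblast gene DCN (1.47 and 1.42) had group means below 3.15, the median of the array medians. So did TRAT1 (1.83 and 1.55), AHSP (2.63 and 2.37) and EPCAM (2.53 and 2.31). The part of these lists in the chemokine values was not tested.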

How the data were processed

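Gene expression of 8 arrays was analysed. The authors' deposited values are log2 expression per probe set, made with RMA in the oligo package per the submitters' processing notes; the sources used here give no versions, array model or genome build. The table held 53617 probe sets; 16098 were named through the platform annotation, updated by Entrez ID through RefSeq (GRCh38.p14, used for names and gene order), and 37519 are unnamed here. Probe sets annotated with several symbols were not used. Where a gene had several probe sets, the one of highest mean stood for it, which left 14884 genes. A listed gene is called measured if it is among these, and the other listed genes may still be on the arrays.

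Groups were compared with limma 3.58.1 (lmFit, eBayes) in R 4.3.3, 2-sided, over all genes, with Benjamini-Hochberg adjustment and a threshold of 0.05. Single genes were also compared with an exact permutation test. Values are mean ± SD, and differences carry the SE of the fit. No filter on dim genes was applied. Precision is limited by the number of arrays. The procedure was tested on simulated data.

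Members and lists were chosen with earlier results of these data known. Values are given per array for members whose mean exceeded the median of all genes (4.30), with an unadjusted p under 0.05, without overlap, or among the 3 largest differences in either direction; other members are given by range, where CCL2, CCL3, CXCL3, CXCL8, CXCL9, CXCL12 and other members named beside a range or an axis were singled out after their values were seen. On each other list, up to 3 genes with the lowest p are named, and NFKB1, NFKB2, REL, RELA, RELB, CD14, CD163, VCAN, CD2, DCN, SPI1, MPO, CD68, MEIS1, FOSB, PTAFR, LTB4R and FGL2 were added to it. Motifs were searched on both strands of the RefSeq promoter windows. Plots were made in matplotlib 3.10.9 (Python 3.11.15).

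Results were recomputed after quantile, cyclic loess or median normalization; on genes above the median of array medians (the filter on dim genes); with probe sets averaged per gene; with a trended, robust prior; with array weights; with a replicate block; without each array, or both numbered 4; and with the CCL3 copy CCL3L1 as a member. The replicate numbers were checked for pairing: the deviations of same-numbered arrays from their group means correlated at -0.037 to 0.062 over genes, so the numbers were not taken to pair the arrays. ENTPD1 itself was lower in shCD39 at each replicate number. With the replicate block its SE was 0.13, against 0.25 without, and its loss was still not called (limma adjusted p = 0.102).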

Additional observations from a re-analysis of the deposited data

Results flagged for a closer look

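CCL5 was marked because 1 of the 4 shCTRL arrays lay far from the others: shCTRL array 4 read 7.29, while the other shCTRL arrays read 8.15 to 8.30. The array with that number in shCD39 was also the lowest of its group, at 7.54. PF4V1 was marked because shCD39 array 3, at 3.06, lay apart from the other shCD39 arrays, which read 3.10 to 3.11; the gap is small and follows from the closeness of the others. FGL2 was marked because shCTRL array 3, at 6.85, lay above the other shCTRL arrays, which read 5.69 to 5.76. These were 3 of 112 groups of 4 arrays looked at, and chance marks about 1 in 20.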

How the results depend on the processing

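The 3 normalizations, the filter on dim genes, the trended prior, averaged probe sets, the replicate block and the added CCL3 copy each left 0 members past the threshold (limma). With the replicate block CCL23 had a limma adjusted p of 0.0814, against 0.0783 without, and CCL4 0.116, against 0.0815 without. The count of 6 members without overlap is taken from the array values alone, so the block could not change it. Array weights gave 2 members and 1 pathway gene, while 0.833% of all genes passed. Leaving out both arrays numbered 4 gave 2 members and 6 pathway genes, while 2.47% of all genes passed. Leaving out 1 array at a time gave 0 to 3 members past the threshold, 0 to 3 pathway genes and 6 to 10 members without overlap. The last count was 3 with the filter on dim genes, which kept 25 members, and 11 without both arrays numbered 4; fewer genes and fewer arrays entered these fits.

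Signs turned for genes near 0. CCL5 stood at 0.066 with quantile normalization, 0.060 with cyclic loess and between -0.24 and 0.13 without single arrays; BANK1, a B cell marker at -0.0021, at 0.077 and 0.069 and between -0.075 and 0.059. CXCL2 stood at 0.021 with quantile normalization, 0.047 without both arrays numbered 4 and between -0.13 and 0.034 without single arrays. CX3CR1 stood at 0.071 without both arrays and between -0.27 and 0.083 without single ones, and CCR2 between -0.11 and 0.39. The cause was not tested. Over all genes, the 14 called genes (50% higher) became 5 with quantile normalization (100% higher) and 10 with cyclic loess (70%), and 124 with array weights (29.8%), 423 without shCD39 array 4 (26.2%) and 368 without both arrays numbered 4 (25%). With no detection calls, dim genes cannot be told from background.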

Other observations

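Some symbols beside the family were left out by the rule. CCRL2, an atypical binder of chemerin, read 3.53 ± 0.33 in shCD39 and 3.61 ± 0.24 in shCTRL (SD, n = 4 each). The read-through transcript CCL15-CCL14 read 1.71 ± 0.20 and 1.68 ± 0.08, and the pseudogene CXCR2P1 3.25 ± 0.27 and 3.22 ± 0.37. In each of them the groups overlapped.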
